A study of Homo sapiens with 6 samples.

Results

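A set of 38 genes of the mitotic spindle, its checkpoint and cell division was followed in PANC1, an established human pancreatic ductal carcinoma line, and in PANC1OR, its oxaliplatin-resistant subline. The genes were chosen by symbol from a list of mitotic genes, each matched 1 of the 58735 rows of the count table, and all 38 passed the filter on low counts. PANC1 was the untreated parental line. PANC1OR was derived by passaging PANC1 in rising amounts of oxaliplatin, a platinum compound that crosslinks DNA, and the design text describes a stably growing line that kept its state without the drug and after freezing. The labels place both lines in DMEM with fetal bovine serum; they do not say whether drug was in the medium when RNA was taken. RNA came from 3 cultures of each line, so PANC1OR stands for 1 selected line and the spread is between cultures, not between independent selections. Keratins of simple epithelium were present in every library (KRT8 at 278 to 777 CPM, read counts scaled to the TMM-adjusted library size), whereas PTPRC of blood cells, PECAM1 and CDH5 of endothelium and DCN of fibroblasts did not exceed 0.498 CPM in any of them. Of the duct keratins, KRT7 did not exceed 3.38 CPM, and KRT19 was at 242, 464 and 269 CPM in PANC1 and at 15.7, 17.1 and 36.8 CPM in PANC1OR. The epithelial adhesion gene EPCAM was at 5.76 to 16.0 CPM, the macrophage marker CD68 at 0.417 to 2.22 CPM, and the collagen genes COL1A1 and COL3A1 at 80.2 to 290.2 and 2.40 to 7.33 CPM; the part of these differences in the results was not tested.

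Mitosis is driven by CDK1 bound to cyclins A and B. CDK1 is switched on by CDC25 phosphatases and, with the Polo and Aurora kinases, it condenses chromosomes and builds the spindle. Kinetochores attach chromosomes to microtubules, and the checkpoint proteins MAD2, BUB1, BUBR1 and TTK hold the anaphase-promoting complex and its activator CDC20 back until every chromosome is attached. Securin and cyclin B are then degraded, motors gather at the spindle midzone, and the cell is cleaved. Many of these genes are transcribed together late in the cell cycle, through promoter elements called CHR (core TTTGAA) and CCAAT boxes, bound by the MuvB complexes and by NF-Y. Their RNA level in bulk culture depends both on how many cells are dividing and on the RNA per dividing cell, and these cannot be told apart here.

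Promoter windows were available for 32 of the 38 genes in the RefSeq table on GRCh38.p14, each from 250 bases before to 50 bases after a start site; windows of AURKA, BIRC5, BUB3, TPX2, TTK and UBE2C were not used here. Read on either strand, TTTGAA was found in at least 1 window of 23 of the 32 genes (71.9%), against 18.2% of all 27305 genes of the table. The CCAAT box, also read on either strand, was found in 26 (81.2%), against 39.7% of all genes, and both motifs in 19 (59.4%), against 8.37%. The 120 bases before the start site follow for the 4 genes that fell in PANC1OR, for CCNB2, the close relative of CCNB1 that was not called, and for CDC20, which had the largest change once PANC1OR replicate 3 was left out. Capitals mark both motifs on either strand, and the letters run 5′ to 3′ on the strand of the gene.
KIF4A, chrX:70289984-70290103, plus strand: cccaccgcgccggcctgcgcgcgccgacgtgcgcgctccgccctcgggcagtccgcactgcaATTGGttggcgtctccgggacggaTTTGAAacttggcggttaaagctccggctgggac
KIF23, chr15:69414229-69414348, plus strand: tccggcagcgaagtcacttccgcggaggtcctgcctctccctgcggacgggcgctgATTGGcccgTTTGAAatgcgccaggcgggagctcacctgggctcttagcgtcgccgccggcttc
KIF20A, chr5:138178992-138179111, plus strand: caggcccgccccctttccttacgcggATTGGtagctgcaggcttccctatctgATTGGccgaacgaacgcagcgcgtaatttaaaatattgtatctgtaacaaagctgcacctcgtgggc
CCNB1, chr5:69167030-69167149, plus strand: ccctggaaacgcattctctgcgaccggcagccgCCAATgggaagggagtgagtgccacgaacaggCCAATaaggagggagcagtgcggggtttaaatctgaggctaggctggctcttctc
CCNB2, chr15:59105026-59105145, plus strand: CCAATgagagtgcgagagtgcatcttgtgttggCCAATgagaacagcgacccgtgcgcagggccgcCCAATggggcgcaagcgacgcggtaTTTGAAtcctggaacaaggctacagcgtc
CDC20, chr1:43358861-43358980, plus strand: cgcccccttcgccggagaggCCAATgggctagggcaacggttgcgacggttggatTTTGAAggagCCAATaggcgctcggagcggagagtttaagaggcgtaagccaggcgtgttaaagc
In these stretches KIF4A and KIF23 carry a reverse CCAAT box followed by the CHR core. KIF20A and CCNB1 carry a pair of CCAAT boxes, and their windows hold no exact CHR core. CCNB2 and CDC20, in contrast, hold the core and more than 1 CCAAT box. The 4 genes that fell thus include promoters with and without an exact TTTGAA. Variants of this core were not searched for. A match is a description of letters, not of a bound site.

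The summed level of the mitotic genes was within the parental range in PANC1OR replicates 1 and 2 and below it in replicate 3. The genes summed to 9255, 8755 and 8210.0 CPM in PANC1 replicates 1 to 3 and to 8469, 8304 and 6974 CPM in PANC1OR replicates 1 to 3. They took between 0.669% and 0.949% of all assigned reads of a library. PANC1OR replicate 3 was the lowest by either measure. With 6 libraries, 1 of the 38 genes rose and 4 fell by edgeR's quasi-likelihood test (adjusted p under 0.05 over all 18751 tested genes). That is 13.2% of the set, beside a background of 17.8% of all tested genes called in either direction, 10.3% higher and 7.50% lower. The median log2 fold change was -0.22 in the set and 0.04 over all tested genes, and 24 of the 38 values (63.2%) were below 0, against 47.5% of all tested genes. At an unadjusted p under 0.05, 4 were higher and 7 lower, beside 29.9% of all tested genes. All 38 log2 fold changes lay between -0.94 and 0.74, so 0 genes passed the submitters' cutoffs (absolute log2 fold change over 2, adjusted p under 0.01), beside 6.25% of all tested genes. The libraries of the lines did not overlap for 5 genes that were higher (13.2%, background 18.9%) and 10 that were lower (26.3%, background 17.6%).

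**Figure D1:**
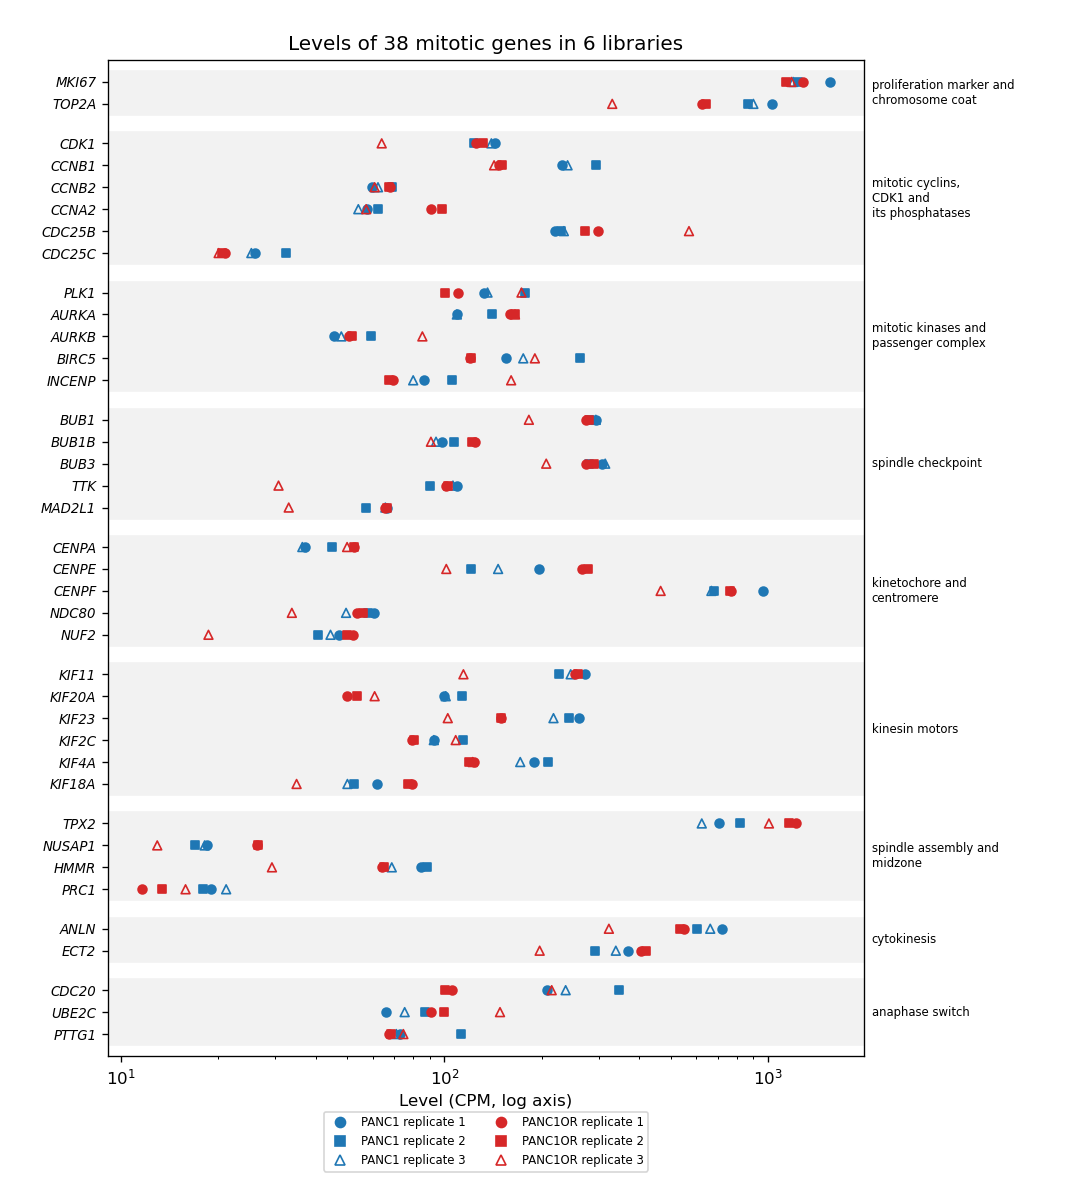
Level of each of the 38 genes in each library, in CPM on a log axis, grouped by role; blue marks are PANC1 and red marks PANC1OR cultures, with open triangles for replicate 3 of each line. PANC1OR replicate 3 stands left of replicates 1 and 2 for genes such as TTK (30.7 CPM against 101 and 103) and right of them for genes such as CDC25B (569 against 299 and 273).

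Library totals ran from 10199268 to 26394388 reads. PANC1OR replicate 3 stood apart from its 2 fellow cultures along GC content, and PANC1 replicate 2 deviated less and in the same sense. Among the 11 mitotic genes under 40% GC, replicate 3 was lower than the mean of replicates 1 and 2 by a median of -1.07 in log2 (range -1.45 to -0.70), and among the 7 genes over 50% GC it was higher by 0.74 (0.44 to 1.23). Among the 20 genes of 40 to 50% GC the median was -0.11, with a wide range (-1.73 to 0.64). The lowest value of the set, that of TTK, was in this middle group. Across the 38 genes the deviation and GC content had a Pearson r of 0.92 and a Spearman rho of 0.91, a description over genes of the same libraries. Over all 18638 tested genes with a GC value they were 0.81 and 0.83, so the trend was not particular to the mitotic genes. For PANC1 replicate 2 the values across the 38 genes were 0.67 and 0.70. Without PANC1OR replicate 3, 8 of the mitotic genes were higher and 11 lower (50%), beside a background of 44.1% of 19650 genes (22.1% higher and 22.0% lower). With offsets for each library's GC trend and all 6 libraries, 7 were higher and 13 lower (52.6%), beside 39.0% (20.7% higher and 18.3% lower). With both deviating libraries left out, 11 were higher and 14 lower, beside a background of 58.5%. The 5 genes called with 6 libraries were called both in the fit without PANC1OR replicate 3 and in the fit with GC offsets. In all, 13 genes were called in both of these fits, each in the same direction, beside 31.0% of the 18638 genes tested in both (16.1% higher and 14.8% lower): 5 higher (CCNA2, CDC25B, AURKA, CENPA and TPX2) and 8 lower (TOP2A, CCNB1, CDC25C, KIF20A, KIF23, KIF4A, PRC1 and CDC20). A further 6 genes were called only in the former fit and 7 only in the latter. The sign differed between them for some genes, such as NUF2 (0.20 and -0.27), ECT2 (0.30 and -0.10) and INCENP (-0.41 and 0.10). The genes of the set on chromosome 20 (CDC25B, AURKA, TPX2 and UBE2C) were all higher without overlap with 6 libraries, beside 18.9% of all tested genes. Of these only TPX2 was called with 6 libraries. Those on chromosome 5 (CCNB1, CDC25C, KIF20A, HMMR and PTTG1) all had log2 fold changes below 0, beside 63.2% of the set and 47.5% of all tested genes. This was seen with the values known, and the part of gene position in these directions was not tested.

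**Figure D2:**
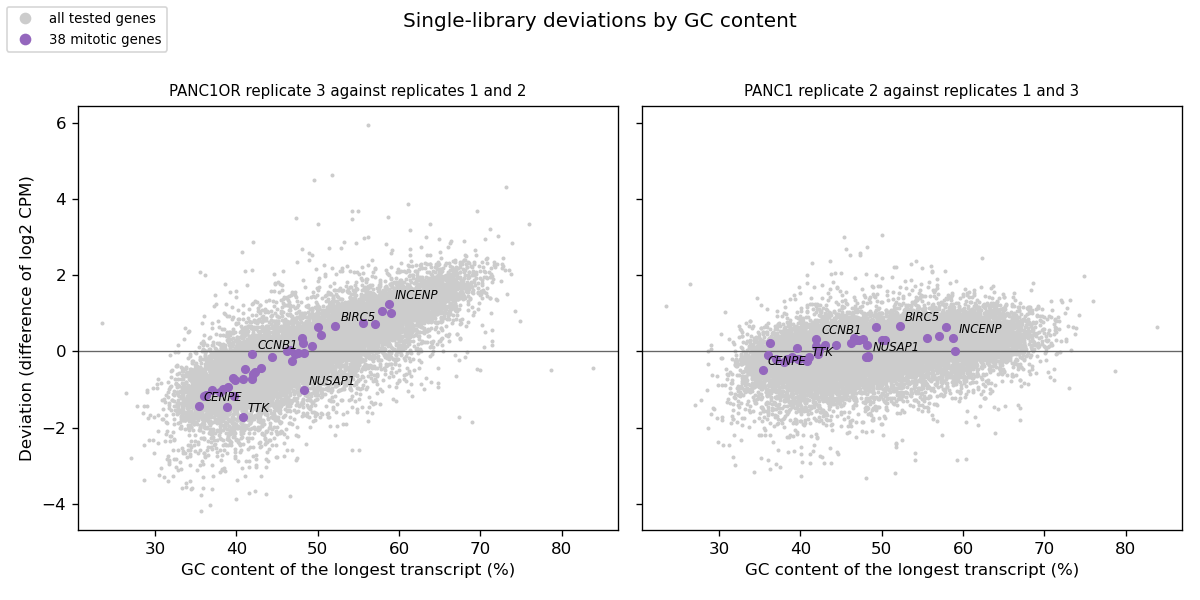
Deviation of 1 library from its fellow cultures (difference of log2 CPM) against GC content of the longest transcript, for PANC1OR replicate 3 (left) and PANC1 replicate 2 (right); purple points are the 38 mitotic genes and grey points all tested genes. On the left the deviations of the mitotic genes run from -1.73 (TTK, 40.78% GC) to 1.23 (INCENP, 58.8% GC). CENPE, with 35.4% GC, is at -1.42.

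Of the 6 genes of the set with a KIF symbol, all kinesin motors, 3 fell (50%). Of all tested genes 7.50% were called lower and 17.8% in either direction. CENPE, also a motor, was not called with 6 libraries and is described with the kinetochore genes. KIF20A, the motor that carries the passenger complex to the midzone (ENSG00000112984, chromosome 5 at 138178719 to 138187723), was at 99.99, 114 and 101 CPM in PANC1 replicates 1 to 3 and at 50.01, 53.5 and 60.9 CPM in PANC1OR replicates 1 to 3. The lines did not overlap, and the log2 fold change was -0.94 ± 0.18 (SE; adjusted p = 0.00775) with 6 libraries and -1.03 ± 0.11 (adjusted p = 0.000207) without PANC1OR replicate 3. KIF23, the motor subunit of centralspindlin (ENSG00000137807, chromosome 15 at 69414246 to 69448427), was at 261, 242 and 217 CPM in PANC1 and at 149, 149 and 102 CPM in PANC1OR. Its highest PANC1OR culture stayed below its lowest PANC1 culture, and the change was -0.84 ± 0.21 (adjusted p = 0.0248), or -0.70 ± 0.12 (0.00213) without PANC1OR replicate 3. KIF4A, a chromokinesin that sets the length of the midzone with PRC1 (ENSG00000090889, chromosome X at 70290104 to 70420886), was at 189.6, 209 and 171 CPM in PANC1 and at 123, 119 and 122 CPM in PANC1OR. The PANC1OR cultures were within a few CPM of each other and all lower, with a change of -0.64 ± 0.17 (adjusted p = 0.0307), or -0.66 ± 0.12 (0.00297) without PANC1OR replicate 3. KIF4A has a near-identical intronless copy, KIF4B, and reads may have been divided between these copies. The exons of KIF20A overlap those of CDC23 and BRD8 on the opposite strand, those of KIF23 overlap KIF23-AS1, and those of KIF4A overlap PDZD11; without a stated strand setting, reads of such pairs cannot be told apart. The same limit holds for CCNA2, CDC25C, PLK1, NUF2, KIF2C, HMMR and ANLN, whose exons also overlap genes on the opposite strand.

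These kinesin calls depended on the libraries. The adjusted p of KIF20A was 0.0502 without PANC1OR replicate 1 and at most 0.0461 without any other single library. For KIF23 it was 0.109, 0.0701 and 0.0725 without PANC1 replicates 1, 2 and 3, and 0.0562 and 0.0556 without PANC1OR replicates 1 and 2. For KIF4A the same fits gave 0.12, 0.0835, 0.089, 0.121 and 0.134, and 0.0797 was found without the filter on low counts. With 1 of these 5 libraries left out fewer of all tested genes passed, and the direction of the 3 genes was the same in each fit.

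The other KIF genes of the set did not pass with 6 libraries. KIF11, the motor that pushes spindle poles apart, was at 271, 227 and 245 CPM in PANC1 and at 254, 259 and 114 CPM in PANC1OR, so that PANC1OR replicate 3 alone was low (log2 fold change -0.25 ± 0.30, adjusted p = 0.658; 0.04 ± 0.12 and 0.83 without it). KIF2C, a microtubule depolymerase at centromeres, was at 92.6, 114 and 92.7 CPM against 79.6, 80.4 and 108 CPM (-0.16 ± 0.20, adjusted p = 0.669; -0.33 ± 0.13 and 0.0644 without PANC1OR replicate 3). KIF18A, which damps chromosome movement at the metaphase plate, was at 62.0, 52.5 and 50.2 CPM in PANC1 and at 79.5, 77.4 and 34.9 CPM in PANC1OR. Its replicates 1 and 2 were above every PANC1 culture and replicate 3 below; the change was 0.22 ± 0.31 (adjusted p = 0.701) with 6 libraries and 0.50 ± 0.12 (0.0118) without PANC1OR replicate 3. KIF18A has 36.03% GC, and its value with GC offsets was 0.04 (adjusted p = 0.813).

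**Figure D3:**
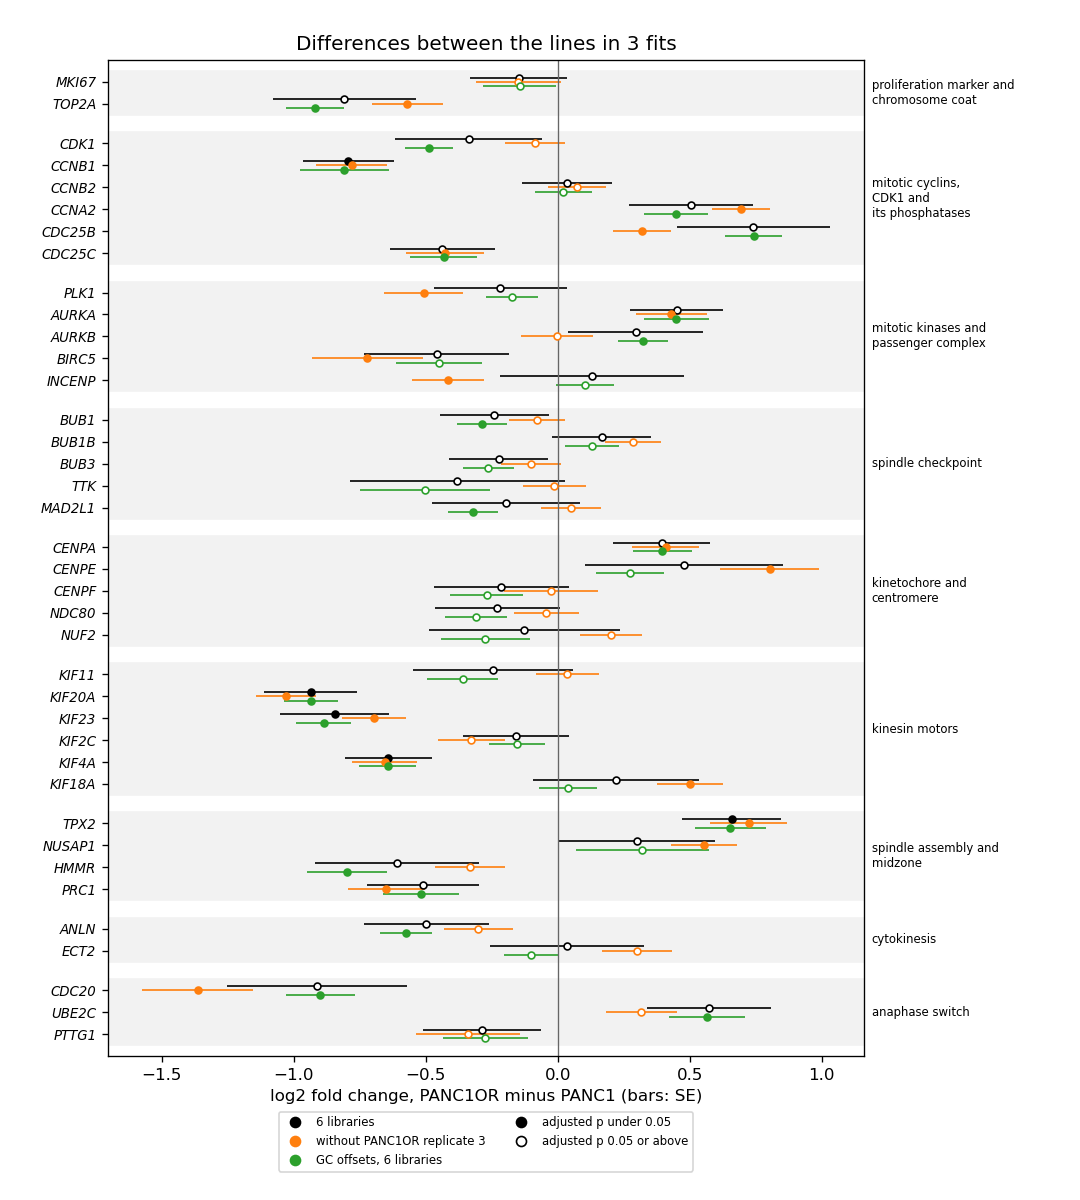
log2 fold change (PANC1OR minus PANC1, with SE) of the 38 genes with 6 libraries (black), without PANC1OR replicate 3 (orange) and with GC offsets (green); filled points have an adjusted p under 0.05. CCNB1, KIF20A, KIF23, KIF4A and TPX2 are filled in all 3 fits, whereas genes such as INCENP change side (0.13 with 6 libraries, -0.41 without PANC1OR replicate 3).

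The B cyclins differed from each other. CCNB1, which encodes the main mitotic cyclin (ENSG00000134057, chromosome 5 at 69167135 to 69178245), was at 231, 293 and 240.1 CPM in PANC1 and at 148, 151 and 142 CPM in PANC1OR. All PANC1OR cultures were lower, including replicate 3, and the gene fell by 0.79 ± 0.17 on the log2 scale (adjusted p = 0.0153), or by 0.78 ± 0.13 (0.002) without that replicate. Leaving out PANC1 replicate 3 gave an adjusted p of 0.0646, and leaving out PANC1OR replicate 1 or 2 gave 0.0693 or 0.0635. CCNB2, the Golgi-associated relative, was at 59.9, 68.9 and 62.3 CPM against 67.7, 67.3 and 60.9 CPM, with overlapping lines (0.04 ± 0.17, adjusted p = 0.921; 0.07 ± 0.11 and 0.62 without PANC1OR replicate 3). Per kilobase of annotated exon, CCNB1 stood at 4.36, 4.81 and 4.36 times CCNB2 in the PANC1 cultures and at 2.47, 2.54 and 2.65 times in the PANC1OR cultures. This ratio, compared within each library, separated the lines with means of 4.51 ± 0.26 and 2.55 ± 0.0908 (SD, n = 3); the pair was looked at with the values known, and no test is given.

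CCNA2, the cyclin of replication and early mitosis, was at 57.5, 62.1 and 54.2 CPM in PANC1 and at 90.9, 98.1 and 57.3 CPM in PANC1OR. PANC1OR replicates 1 and 2 were higher than all PANC1 cultures and replicate 3 was among them (0.50 ± 0.23, adjusted p = 0.196; 0.69 ± 0.11 and 0.00133 without it). CDK1, the mitotic kinase itself, was at 143, 123 and 139.6 CPM against 125, 132 and 64.0 CPM, and only PANC1OR replicate 3 lay outside the parental range (-0.34 ± 0.28, adjusted p = 0.481; -0.09 ± 0.11 and 0.569 without it). With GC offsets CDK1 was called lower, at -0.49 (adjusted p = 0.0022).

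The phosphatases that activate CDK1 had opposite signs. CDC25B was at 219, 229 and 234 CPM in PANC1 and at 299, 273 and 569 CPM in PANC1OR. The lines did not overlap, but the gene did not pass with 6 libraries (0.74 ± 0.29, adjusted p = 0.127); without PANC1OR replicate 3 it was called at a smaller value, 0.32 ± 0.11 (adjusted p = 0.0451). CDC25C was at 25.9, 32.4 and 25.3 CPM against 21.0, 20.6 and 20.1 CPM, also without overlap (-0.44 ± 0.20, adjusted p = 0.184; -0.43 ± 0.15 and 0.0448 without PANC1OR replicate 3). The ratio of CDC25B to CDC25C per kilobase was 7.21, 6.04 and 7.87 in PANC1 and 12.1, 11.3 and 24.2 in PANC1OR. It too was looked at with the values known and was not tested. CDC25B has 59.06% GC and CDC25C 47.64%, and PANC1OR replicate 3 was 1.00 above its fellow cultures in log2 for the former and -0.05 from them for the latter.

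**Figure D4:**
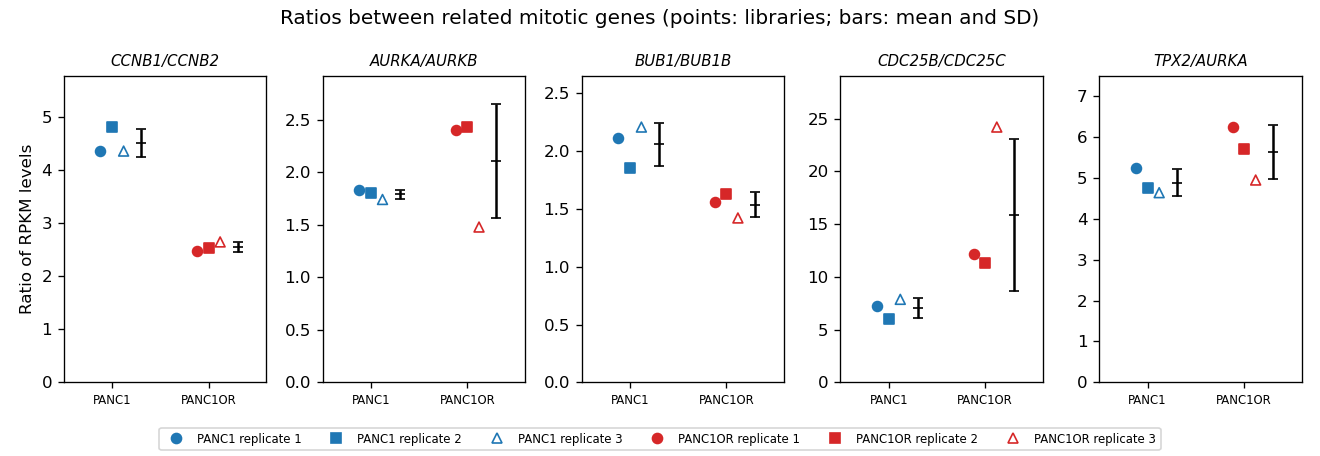
Ratio of the levels of 5 pairs of related genes per kilobase of exon in each library, with mean and SD over 3 cultures of each line; axes start at 0. CCNB1/CCNB2 and BUB1/BUB1B are lower and CDC25B/CDC25C is higher in every PANC1OR culture, whereas AURKA/AURKB and TPX2/AURKA overlap between the lines.

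TPX2, which activates Aurora A on spindle microtubules (ENSG00000088325, chromosome 20 at 31739271 to 31801805), was the gene of the set that rose with 6 libraries. It was at 704, 817 and 624 CPM in PANC1 and at 1222, 1159.8 and 1006 CPM in PANC1OR. Every PANC1OR culture was higher than every PANC1 culture, with a change of 0.66 ± 0.19 (adjusted p = 0.0444), or 0.72 ± 0.15 (0.00443) without PANC1OR replicate 3. Leaving out PANC1 replicate 1 or 3 ended the call (adjusted p = 0.164 and 0.201), as did leaving out PANC1OR replicate 1 or 2 (0.181 and 0.147) and dropping the filter on low counts (0.0642). Per kilobase TPX2 had the highest level of the 38 genes in both lines, with means of 198 and 313 RPKM (CPM per kilobase of exon).

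Its partner AURKA, the kinase of spindle poles, was at 109, 139.8 and 109 CPM in PANC1 and at 159, 165 and 165 CPM in PANC1OR. The lines did not overlap, and the gene passed without PANC1OR replicate 3 (0.43 ± 0.13, adjusted p = 0.0307) but not with 6 libraries (0.45 ± 0.18, adjusted p = 0.129). The TPX2 to AURKA ratio per kilobase overlapped between the lines, at 5.25, 4.75 and 4.64 in PANC1 and 6.24, 5.72 and 4.95 in PANC1OR. AURKB, the kinase of the chromosomal passenger complex, was at 45.6, 59.4 and 48.0 CPM against 50.6, 51.9 and 85.5 CPM. PANC1OR replicates 1 and 2 were within the parental range, and the change was 0.30 ± 0.26 (adjusted p = 0.505) with 6 libraries and -0.00217 ± 0.14 (0.991) without replicate 3. With GC offsets AURKB was called higher, at 0.32 (adjusted p = 0.0216).

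The other passenger genes were lower in 2 of 3 PANC1OR cultures. BIRC5, which encodes survivin, was at 155, 262 and 175 CPM in PANC1 and at 120.2, 121 and 190.2 CPM in PANC1OR (-0.46 ± 0.27, adjusted p = 0.32; -0.72 ± 0.21 and 0.0228 without PANC1OR replicate 3). INCENP, the scaffold of the complex, was at 86.5, 105 and 80.1 CPM against 69.6, 67.3 and 161 CPM. Its PANC1OR replicates 1 and 2 were the lowest and replicate 3 the highest of the 6 libraries, so the sign turned, from 0.13 ± 0.35 (adjusted p = 0.852) to -0.41 ± 0.14 (0.038) without replicate 3. PLK1, the Polo kinase of mitotic entry and spindle building, was at 133, 177 and 136 CPM in PANC1 and at 109.8, 100.4 and 173 CPM in PANC1OR (-0.22 ± 0.25, adjusted p = 0.63; -0.51 ± 0.15 and 0.0242 without replicate 3). BIRC5, INCENP and PLK1 have 52.19%, 58.8% and 57.1% GC, and with GC offsets none of these 3 passed, at adjusted p of 0.0542, 0.496 and 0.193.

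The spindle checkpoint genes had 0 calls among 5 by edgeR's quasi-likelihood test, both with 6 libraries (background 17.8%) and without PANC1OR replicate 3 (44.1%). They had 0 at an unadjusted p under 0.05 with 6 libraries (29.9%). DESeq2 and the likelihood ratio test also gave 0 (background 21.7% and 22.2% of all tested genes). Limma voom with sample weights gave 1 higher and 0 lower (background 63.1%). The GC offsets gave 2 lower (BUB1 and MAD2L1), beside a background of 18.3% lower and 39.0% in either direction. BUB1, the kinase that marks kinetochores for the checkpoint, was at 293, 281 and 294 CPM in PANC1 and at 273, 279 and 182 CPM in PANC1OR, lower in each culture but by little in the first 2 (-0.24 ± 0.21, adjusted p = 0.502; -0.08 ± 0.11 and 0.583 without PANC1OR replicate 3). BUB1B, which encodes BUBR1, was at 98.3, 107 and 94.2 CPM against 124, 122 and 90.8 CPM (0.17 ± 0.19, adjusted p = 0.626; 0.29 ± 0.11 and 0.0604 without that replicate). Its exons overlap those of PAK6 and BUB1B-PAK6 on the same strand. The BUB1 to BUB1B ratio per kilobase was 2.11, 1.85 and 2.21 in PANC1 and 1.56, 1.63 and 1.42 in PANC1OR, without overlap. This pair was also looked at with the values known, and no test is given. MAD2L1, which encodes the MAD2 that binds CDC20, was at 66.4, 57.1 and 65.7 CPM against 65.6, 66.3 and 33.0 CPM, and TTK, the kinase that starts checkpoint signalling, at 109, 89.9 and 106 CPM against 101, 103 and 30.7 CPM. For both, PANC1OR replicates 1 and 2 were close to the parental cultures and replicate 3 was far below. Without it the log2 fold changes were 0.05 ± 0.11 (adjusted p = 0.749) and -0.01 ± 0.12 (0.943), against -0.20 ± 0.28 (0.702) and -0.38 ± 0.41 (0.599) with it. BUB3, the adaptor of BUB1 and BUBR1, was at 307, 279 and 314 CPM in PANC1 and at 274, 289.8 and 206 CPM in PANC1OR (-0.22 ± 0.19, adjusted p = 0.493; -0.10 ± 0.11 and 0.503 without replicate 3). MAD2L1 and TTK have 38.38% and 40.78% GC.

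Kinetochore and centromere genes had 0 calls among 5 with 6 libraries by the quasi-likelihood test (background 17.8%). DESeq2 (21.7%) and the likelihood ratio test (22.2%) also gave 0, as did an unadjusted p under 0.05 (29.9%). Both without PANC1OR replicate 3 (background 44.1%) and by limma voom (63.1%), 2 were higher. CENPA, the histone variant that defines centromeres, was at 37.0, 44.8 and 36.4 CPM in PANC1 and at 52.5, 52.6 and 50.04 CPM in PANC1OR. All PANC1OR cultures were higher (0.39 ± 0.18, adjusted p = 0.195; 0.41 ± 0.13 and 0.0301 without PANC1OR replicate 3). Part of the CENPA exons overlap those of SLC35F6 on the same strand. CENPE, a kinetochore motor that carries chromosomes to the plate, was at 196, 121 and 146 CPM against 266, 277 and 101 CPM. PANC1OR replicates 1 and 2 were the highest and replicate 3 the lowest of all 6 libraries, with a change of 0.48 ± 0.38 (adjusted p = 0.457) and 0.80 ± 0.19 (0.00862) without the latter; CENPE has 35.4% GC, and the value with GC offsets was 0.27 (adjusted p = 0.13). CENPF, a large protein of the outer kinetochore, was at 962, 682 and 668 CPM against 765, 762 and 465 CPM. For CENPF, PANC1OR replicate 3 alone lay outside the parental range (-0.21 ± 0.26, adjusted p = 0.645; -0.02 ± 0.18 and 0.924 without it). The microtubule-binding NDC80 was at 60.5, 58.0 and 49.7 CPM against 53.6, 55.9 and 33.8 CPM, again with PANC1OR replicate 3 alone below the parental range (-0.23 ± 0.24, adjusted p = 0.585; -0.04 ± 0.12 and 0.796 without it). Its partner NUF2 was at 47.1, 40.6 and 44.5 CPM in PANC1 and at 52.3, 49.96 and 18.7 CPM in PANC1OR. Replicates 1 and 2 of PANC1OR lay above the parental range and replicate 3 below it, and the sign turned without the latter (-0.13 ± 0.36, adjusted p = 0.861; 0.20 ± 0.12 and 0.192).

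The anaphase switch genes showed the largest single difference of the set without PANC1OR replicate 3. CDC20, the activator of the anaphase-promoting complex (ENSG00000117399, chromosome 1 at 43358981 to 43363203), was at 208, 346 and 237 CPM in PANC1 and at 106, 100.2 and 214 CPM in PANC1OR. PANC1OR replicates 1 and 2 were below every PANC1 culture, and replicate 3 was among them. The change was -0.91 ± 0.34 (adjusted p = 0.112) with 6 libraries, -1.36 ± 0.21 (0.00117) without PANC1OR replicate 3, and -0.90 (0.00053) with GC offsets. CDC20 has 57.91% GC, and PANC1OR replicate 3 and PANC1 replicate 2 were 1.06 and 0.64 above their fellow cultures in log2; with both of these left out, the change was -1.13. UBE2C, the ubiquitin-conjugating enzyme of that complex, was at 65.8, 86.8 and 75.3 CPM against 90.7, 99.9 and 148 CPM, higher in each PANC1OR culture (0.57 ± 0.24, adjusted p = 0.148; 0.32 ± 0.13 and 0.0864 without PANC1OR replicate 3), and with GC offsets it was called (0.57, 0.0122). PTTG1, which encodes securin, was at 73.0, 113 and 71.0 CPM against 67.6, 68.1 and 74.6 CPM, with PANC1 replicate 2 standing above the others (-0.29 ± 0.22, adjusted p = 0.455; -0.34 ± 0.20 and 0.193 without PANC1OR replicate 3). PTTG1 has near-identical copies elsewhere in the genome, so its counts are uncertain.

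Neither of the common markers of dividing cells passed with 6 libraries. MKI67, which encodes the Ki-67 coat of mitotic chromosomes (ENSG00000148773, chromosome 10 at 128096659 to 128126423), was at 1549, 1240.0 and 1194 CPM in PANC1 and at 1279, 1134 and 1180.1 CPM in PANC1OR. The lines overlapped and PANC1OR replicate 3 lay between its fellow cultures (-0.15 ± 0.18, adjusted p = 0.654; -0.15 ± 0.16 and 0.482 without it). TOP2A, the topoisomerase that untangles chromosomes, was at 1029, 864 and 900.2 CPM in PANC1 and at 624, 641 and 329.9 CPM in PANC1OR. Each PANC1OR culture was lower than each PANC1 culture. TOP2A did not pass with 6 libraries (-0.81 ± 0.27, adjusted p = 0.0791) and was called lower without PANC1OR replicate 3 (-0.57 ± 0.13, 0.00908), with GC offsets (-0.92, 0.00017) and by DESeq2 and the likelihood ratio test.

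Spindle and cleavage genes were mixed. PRC1, the crosslinker of midzone microtubules, was at 19.0, 17.97 and 21.2 CPM in PANC1 and at 11.7, 13.4 and 15.9 CPM in PANC1OR, without overlap (-0.51 ± 0.21, adjusted p = 0.151; -0.65 ± 0.15 and 0.00739 without PANC1OR replicate 3). NUSAP1, a microtubule bundler near chromatin, was at 18.5, 16.9 and 18.2 CPM against 26.3, 26.6 and 13.0 CPM (0.30 ± 0.30, adjusted p = 0.56; 0.55 ± 0.12 and 0.00718). Per kilobase these were the 2 lowest of the set, with 3.51 and 4.95 RPKM in PANC1. PRC1 exons overlap PRC1-AS1 on the opposite strand and ENSG00000284946 on the same strand, and NUSAP1 exons overlap OIP5 on the opposite strand and OIP5-AS1 and ENSG00000285920 on the same strand. The rule for reads in shared exons is not stated, so these low levels are uncertain. HMMR, a spindle pole protein and hyaluronan receptor, was at 84.4, 88.5 and 68.7 CPM against 63.9, 64.9 and 29.3 CPM, lower in each PANC1OR culture (-0.61 ± 0.31, adjusted p = 0.238; -0.33 ± 0.13 and 0.073 without PANC1OR replicate 3), and with GC offsets it was called lower (-0.80, 0.00267).

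Of the cleavage genes, ANLN, which encodes the ring scaffold anillin, was at 719.7, 602 and 662 CPM in PANC1 and at 549, 534 and 322 CPM in PANC1OR. All PANC1OR cultures were lower, without a call (-0.50 ± 0.24, adjusted p = 0.205; -0.30 ± 0.13 and 0.0917 without PANC1OR replicate 3), and with GC offsets it was called lower (-0.58, 0.00143). ECT2, the activator of RHOA at the midzone, was at 368, 291 and 338 CPM against 405, 420.3 and 197 CPM. PANC1OR replicates 1 and 2 were above the parental cultures and replicate 3 below them (0.04 ± 0.29, adjusted p = 0.956; 0.30 ± 0.13 and 0.0992 without PANC1OR replicate 3), and the sign turned without PANC1 replicate 2, PANC1OR replicate 1 or PANC1OR replicate 2 (-0.06, -0.12 and -0.14).

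The rest of the mitotic machinery was described by 9 further lists, with 183 of 186 genes tested. With 6 libraries 4 rose and 10 fell (7.65%, beside 17.8% of all tested genes), and without PANC1OR replicate 3, 42 were higher and 50 lower (50%, beside 44.1%). The median log2 fold change was -0.02 with 6 libraries. Cytokinesis held 5 of the 14 calls, 2 higher and 3 lower among 16 genes. MYH10, which encodes non-muscle myosin heavy chain of the cleavage ring, fell from 128, 106 and 110.5 CPM in PANC1 to 11.5, 11.5 and 9.83 CPM in PANC1OR (-3.39 ± 0.20, adjusted p = 3.52e-05). It was the only gene of these lists past an absolute log2 fold change of 2 and an adjusted p of 0.01, and it was called without any single library, at adjusted p up to 0.000891. CHMP4B, an ESCRT filament gene of the final abscission, rose from 51.7 ± 14.9 to 114 ± 22.2 CPM (SD, n = 3; 1.15 ± 0.25, adjusted p = 0.0167; 0.0922 and 0.0995 without PANC1 replicates 1 and 3). KIF13A, a kinesin that carries vesicles to the midzone, fell by 0.59 ± 0.16 (adjusted p = 0.0401), a call that was kept without PANC1OR replicate 3 (0.00384) and needed each of the other 5 libraries (0.0563 to 0.176 when 1 of them was left out). RACGAP1, the centralspindlin partner of KIF23, was at 178 ± 12.6 and 188 ± 24.2 CPM (0.07 ± 0.18, adjusted p = 0.834; 0.16 ± 0.11 and 0.269 without PANC1OR replicate 3); it was named after its values were seen.

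Among 13 checkpoint and passenger partners 1 fell: BOD1, an inhibitor of a kinetochore phosphatase, was at 73.7, 99.9 and 76.6 CPM in PANC1 and at 40.3, 39.6 and 41.4 CPM in PANC1OR (-1.04 ± 0.19, adjusted p = 0.0071, and at most 0.0357 without 1 library). Of 18 genes of the anaphase-promoting complex 1 fell, the subunit gene CDC23 (-0.79 ± 0.20, adjusted p = 0.0291, or 0.0021 without PANC1OR replicate 3; 0.0607 to 0.141 with any 1 of the other 5 libraries left out). CDC23 shares exon sequence with KIF20A on the opposite strand. Without PANC1OR replicate 3, 0 of 19 genes of this list were higher by the quasi-likelihood test and 8 lower, beside 22.1% and 22.0% of all genes tested without it. With 6 libraries limma voom gave 4 higher and 10 lower (background 63.1%), DESeq2 gave 0 and 1 (21.7%), and 0 and 3 stood at an unadjusted p under 0.05 (29.9%). Of 19 cohesin and condensin genes 1 fell, the cohesin subunit gene STAG1 (-0.79 ± 0.23, adjusted p = 0.0488, or 0.00514 without PANC1OR replicate 3; 0.077 to 0.171 with any 1 of the other 5 libraries left out). Of 29 spindle motor and microtubule genes 1 fell: SPAG5, which encodes the spindle protein astrin, was at 223, 228 and 210.3 CPM in PANC1 and at 106, 112 and 141 CPM in PANC1OR (-0.88 ± 0.18, adjusted p = 0.0119). Leaving out PANC1 replicate 1 or 3 gave 0.0617 or 0.0572, and leaving out PANC1OR replicate 1 or 2 gave 0.0666 or 0.0595.

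**Figure D5:**
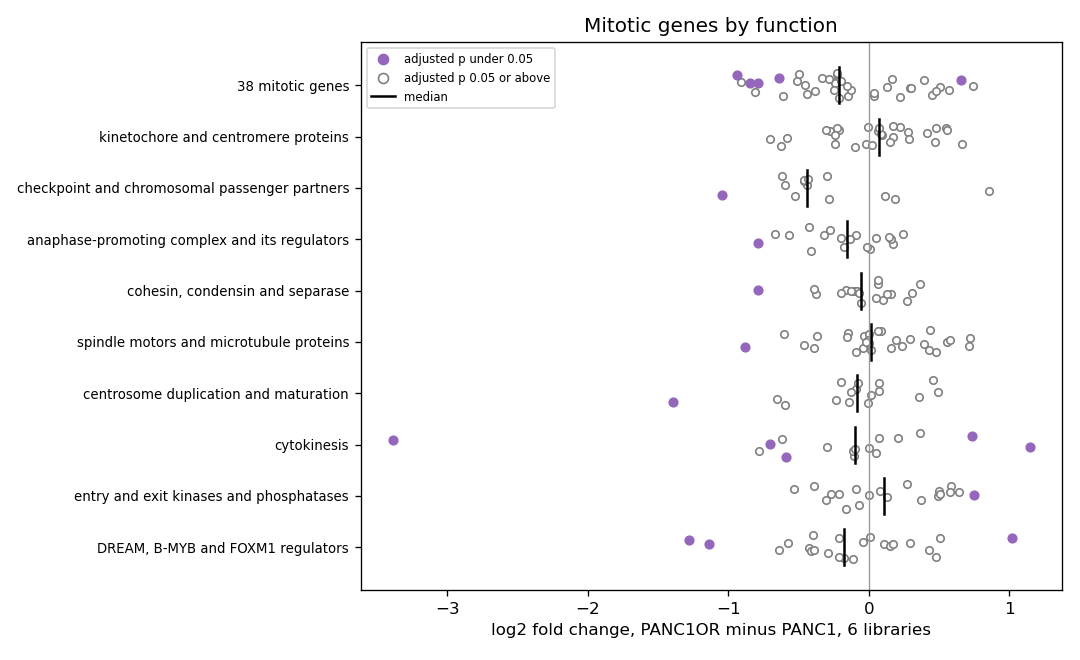
log2 fold change (PANC1OR minus PANC1, 6 libraries) of the 38 genes and of 9 further lists of mitotic genes; each point is a gene, filled where the adjusted p is under 0.05, and black bars are medians. The filled point at -3.39 in the cytokinesis row is MYH10, and the medians lie between -0.44 (checkpoint and passenger partners) and 0.10 (entry and exit kinases and phosphatases).

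Of 16 centrosome genes 1 fell: NEK9, a kinase upstream of centrosome separation, was at 68.4, 58.0 and 73.1 CPM in PANC1 and at 26.0, 23.7 and 26.1 CPM in PANC1OR (-1.40 ± 0.19, adjusted p = 0.00161, and at most 0.0176 without 1 library). Of 20 entry and exit kinases and phosphatases 1 rose, CDC25A, the phosphatase gene of earlier cell cycle steps (0.75 ± 0.20, adjusted p = 0.0362, or 0.0051 without PANC1OR replicate 3; 0.0665 to 0.181 with any 1 of the other 5 libraries left out). Together with CDC25B, whose cultures were all higher, and CDC25C, whose cultures were all lower, the CDC25 genes did not share a direction. Kinetochore and centromere proteins had 0 calls among 29 by the quasi-likelihood test (background 17.8%), DESeq2 (21.7%) and the likelihood ratio test (22.2%). At an unadjusted p under 0.05, 1 was higher and 1 lower (background 29.9%). By limma voom, 14 were higher and 8 lower (background 63.1%). The smallest p of that list belonged to SKA2, a microtubule-coupling protein gene, at 27.6, 25.5 and 25.4 CPM against 49.3, 48.9 and 26.3 CPM (0.66 ± 0.27, adjusted p = 0.143; 0.000406 without PANC1OR replicate 3).

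Among 23 regulators of mitotic transcription 1 rose and 2 fell. E2F7, a repressor of the E2F family, was at 29.7, 26.7 and 29.8 CPM in PANC1 and at 63.6, 61.4 and 49.8 CPM in PANC1OR (1.02 ± 0.19, adjusted p = 0.00785; 0.0502 and 0.0522 without PANC1 replicates 1 and 3). RBBP4, the histone-binding subunit of MuvB, was at 418, 413 and 477 CPM against 219, 222 and 153 CPM (-1.14 ± 0.20, adjusted p = 0.00613, and at most 0.0405 without 1 library). MYBL1, a relative of B-MYB, fell from 359.9 ± 63.0 to 148 ± 57.8 CPM (-1.28 ± 0.32, adjusted p = 0.0278; 0.107, 0.057 and 0.0947 without PANC1 replicates 1, 2 and 3). FOXM1 and MYBL2, the activators of late cell cycle genes, were named after their values were seen. FOXM1 was at 122, 129 and 117 CPM in PANC1 and at 133, 120.1 and 199 CPM in PANC1OR (0.29 ± 0.22, adjusted p = 0.438; 0.03 ± 0.11 and 0.826 without replicate 3). MYBL2 was at 120.1, 171 and 125 CPM against 118, 109 and 221 CPM (0.11 ± 0.30, adjusted p = 0.858; -0.30 ± 0.16 and 0.171). For both, PANC1OR replicates 1 and 2 were near the parental cultures and replicate 3 was the highest library.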

How the data were processed

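The deposited table held raw read counts, made by the authors from mRNA libraries of 3 cultures per line. The design text and the submitters' processing notes name cutadapt (Trim Galore 0.4.2) for trimming, STAR 2.5 for alignment to GRCh38 and Subread 1.6.2 (featureCounts) for counting. The annotation release and strand setting are not stated there. The table held 5 further columns without values. Positions, exon length and GC content came from GENCODE on GRCh38 by gene identifier.

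Genes passing filterByExpr (18751) were fitted with edgeR 4.0.16 (R 4.3.3), TMM factors and the quasi-likelihood F test on all 6 libraries, PANC1OR minus PANC1, in place of the likelihood ratio test that the design text names. Adjusted p-values are Benjamini-Hochberg values over all tested genes, the SE comes from the F statistic, and calls are at 0.05. Alternatives included DESeq2 1.42.0, limma 3.58.1 and offsets from a loess of log2 CPM on GC. The fit was tested on simulated data that held no GC trend and no deviating library, so it does not bear on PANC1OR replicate 3. No 2 libraries of the same line agreed within sampling noise (chi-square per degree of freedom at least 3.99).

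The 38 genes, the 9 lists and the tests were chosen with earlier results of these data known. Every one of the 38 genes was described; of each list, up to 3 called genes with the smallest p were named, or the gene with the smallest p. Of 186 listed genes, 185 matched a row and 183 were tested.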

Additional observations from a re-analysis of the deposited data

How the results depend on the processing

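Counts below are given as higher and lower. With GC offsets, 7 and 13 of the 38 genes, 26 and 40 of the other mitotic genes and 3858 and 3418 of all tested genes were called. Without PANC1OR replicate 3 and PANC1 replicate 2 the counts were 11 and 14, 63 and 67, and 5664 and 5758, and by limma voom with sample weights 11 and 13, 65 and 63, and 5952 and 5876. Without a filter on low counts 0 of the 38 genes were higher and 5 lower: TPX2 and KIF4A lost their calls (adjusted p = 0.0642 and 0.0797), and TOP2A and CDC20 were called (0.0305 and 0.0185). With the filter, 11 of the 38 stood at an unadjusted p under 0.05 (4 higher, 7 lower). Leaving out 1 library gave 0 to 8 and 0 to 11 of the 38 genes, 0 to 42 and 4 to 50 of the other mitotic genes, and 1103 to 4340 and 718 to 4323 of all genes, the highest each time without PANC1OR replicate 3. DESeq2, the likelihood ratio test, RLE factors and a 1 CPM filter kept all 6 counts within 1.5 times.

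Whether same-numbered cultures were paired is not known. Deviations from the group means correlated at 0.46, -0.45 and -0.22 between same-numbered cultures. Between the 2 deviating libraries, PANC1 replicate 2 and PANC1OR replicate 3, they correlated at 0.51. The GC deviation of these libraries enters the group means, so the correlations cannot decide on pairing. With a replicate block, 0 and 2 of the 38 genes, 2 and 6 of the other mitotic genes and 1402 and 922 of all genes were called; the block with GC offsets gave 6 and 11, 21 and 40, and 3371 and 3005.

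The sign of some small log2 fold changes turned. ECT2 was at -0.10 with GC offsets, -0.0343 with the replicate block and -0.10 with both, and ranged from -0.14 to 0.30 without 1 library. INCENP was at -0.30 and NUF2 at 0.14 with the 2 deviating libraries left out. By limma voom INCENP was at -0.27, MAD2L1 at 0.00383, CENPF at 0.0325, NDC80 at 0.0274, NUF2 at 0.185 and KIF11 at 0.0145. Without 1 library the ranges were -0.0161 to 0.0930 for CCNB2, -0.00217 to 0.42 for AURKB, -0.41 to 0.34 for INCENP, -0.36 to 0.0504 for MAD2L1, -0.37 to 0.20 for NUF2 and -0.43 to 0.0363 for KIF11. The cause was not tested.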
